A study of Mus musculus with 3 samples.

Results

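The genes described here set or mark the mesenchymal or the epithelial identity of a cell: Cdh1, Cdh2, Epcam, Snai1, Snai2, Twist1, Zeb1, Zeb2, Prrx1 and Thy1. They were chosen by name, without use of any measured value, and every probe carrying one of these names was kept. This gave 13 probes for 10 genes, printed as 22 spots, out of 55681 probes for 35451 gene names on the array. Total RNA of mouse embryonic fibroblasts (MEF) was Cy3-labeled and put on Agilent arrays of the mouse transcriptome, 1 array for each of 3 conditions. The control MEF received no BP, the BP10 cells were grown with 10 µg/ml of n-Butylenephthalide (BP, called n-butylidenephthalide in the study's paper, a compound of Angelica sinensis), and the BP40 cells with 40 µg/ml. All 3 cultures were of strain C57BL/6. According to the paper's methods they were primary cells grown from minced mid-gestation embryos whose heads, legs and internal organs had been removed, so a culture can hold several connective tissue cell types. The labels record no treatment for the control, whereas the paper names DMSO, the solvent of BP. The duration of the exposure is not given in the sources used here.

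MEF are mesenchymal cells. In the epithelial-to-mesenchymal transition, zinc finger factors of the SNAIL family (Snai1, Snai2) and of the ZEB family (Zeb1, Zeb2) repress epithelial genes. They bind E-box letters in the promoters of these genes, Cdh1 above all, and recruit corepressors there. Fibroblasts pass through the reverse transition when they are reprogrammed to pluripotent cells. The helix-loop-helix factor Twist1 and the homeobox factor Prrx1 work on the mesenchymal side. Cdh1 (E-cadherin) and Epcam hold epithelial cells together at their surface, Cdh2 (N-cadherin) replaces Cdh1 in many mesenchymal cells, and Thy1 (CD90) is a surface glycoprotein of fibroblasts, T cells and neurons.

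Promoter sequence from RefSeq (build GRCm38.p6) was matched by symbol for 5 of the 10 genes: Epcam, Snai1, Twist1, Zeb2 and Prrx1. The 250 bases before each start were searched for the E-box letters CACCTG on both strands, that is for CACCTG or CAGGTG. These genes have 8 such windows. The letters were present in 2 of the 8, those of Epcam and Snai1, and in none of the windows of Twist1, Prrx1 and Zeb2, compared with 17.2% of all 32851 promoter windows of the same length. The Epcam and Snai1 windows are printed because they hold the letters that SNAIL and ZEB factors recognize, with these letters in capitals. The Epcam window, chr17:87635729-87635978 on the plus strand, holds 2 of them, starting 187 and 19 bases before the start of the gene, and the Snai1 window, chr2:167537945-167538194 on the plus strand, holds 1, starting 126 bases before the start. A match of letters is a description of the sequence and was not measured as a bound site.
Epcam: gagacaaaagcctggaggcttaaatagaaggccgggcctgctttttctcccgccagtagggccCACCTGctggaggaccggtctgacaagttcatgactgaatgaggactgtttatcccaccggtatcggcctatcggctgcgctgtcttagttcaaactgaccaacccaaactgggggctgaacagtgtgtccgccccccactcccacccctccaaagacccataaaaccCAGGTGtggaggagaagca
Snai1: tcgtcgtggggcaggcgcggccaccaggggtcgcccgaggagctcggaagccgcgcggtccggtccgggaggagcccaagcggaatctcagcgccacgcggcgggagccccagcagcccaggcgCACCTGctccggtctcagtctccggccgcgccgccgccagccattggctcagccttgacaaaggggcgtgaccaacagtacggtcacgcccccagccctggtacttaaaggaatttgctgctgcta

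The scanner software gives each spot a processed signal in arbitrary units. The level used below is the log2 of that signal minus the log2 of the 75th percentile of the gene spots of the same array, so that 0 stands for that 75th percentile and each unit is a doubling. A log2 ratio is a difference of these levels between 2 arrays, and a probe was called at 2-fold (a ratio of 1 or more in either direction) where it was well above background on at least 1 of both arrays, by the scanner software's own flag. With 1 array per condition there was no spread between cultures, so no test was possible and each ratio compares 2 arrays. The only errors that can be given are technical. The scanner's error model puts 1 SD at 0.20 to 0.21 for the log2 ratio of a bright member probe. The SD of the ratio between 2 probes of one gene, as a median over 4731 genes with such a pair, was 0.29 in BP10 and 0.22 in BP40 against control, and 0.21 for BP40 against BP10. Levels of different probes are not compared, because each probe binds its target with its own strength.

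For the 59305 gene spots, 81.7% of the control, 68.3% of the BP10 and 69.1% of the BP40 array's spots were well above background, and no spot was saturated. All 3 arrays lay on 1 slide, but the control was scanned apart from the BP arrays, and the scanner software applied a multiplicative detrending to the BP arrays only. Against the control, the effect of BP and that of these steps cannot be told apart. The median log2 ratio of all probes was -0.24 in BP10 and -0.15 in BP40 against control, and 0.04 for BP40 against BP10, and the ratios of the members should be read relative to these values.

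The mesenchymal regulators, Cdh2 and Thy1 were well above background in all 3 conditions, and the epithelial surface genes Cdh1 and Epcam in none. None of the 13 probes was called in any comparison. Over all probes, 12.7% were called in BP10 and 11.2% in BP40 against control, and 3.73% for BP40 against BP10. The 11 probes of 8 genes that were well above background on all 3 arrays are compared more closely with the probes that were so too, of which 13.1%, 11.5% and 3.46% were called in the same order. For these 11 probes the log2 ratio lay between -0.60 and 0.32 in BP10, between -0.67 and 0.33 in BP40, and between -0.32 and 0.31 for BP40 against BP10. The number of the 11 probes whose ratio differed from 0 by more than 2 SD of the scanner error was 2 in BP10 and 2 in BP40 against control. It was 0 for BP40 against BP10. The 8 genes above background thus showed no 2-fold difference between any 2 of the 3 arrays. With such shares few calls would fall on 11 probes, so this does not set the members apart from other probes. Against the control, the central 90% of probes of like brightness also lay within 2-fold, except for those of the dimmer Zeb2 probe.

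**Figure D1:**
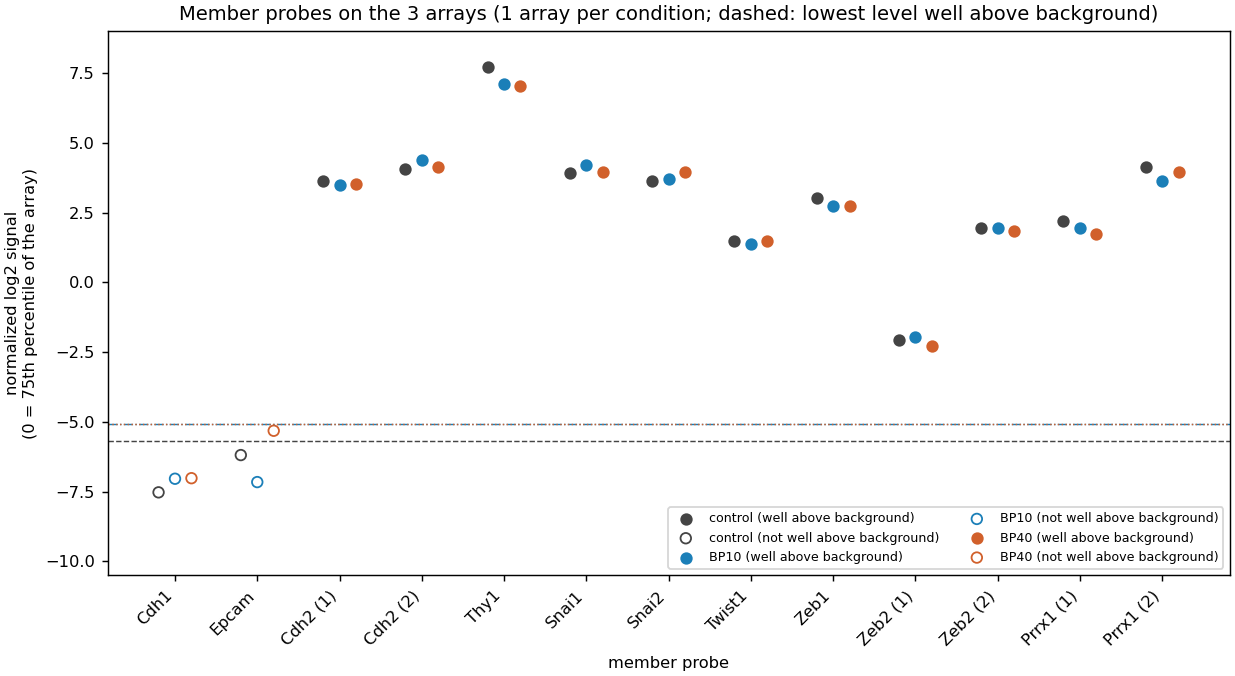
Level of each of the 13 member probes (normalized log2 signal, 0 being the 75th percentile of the gene spots of the array) on the control, BP10 and BP40 arrays, 1 array per condition. Filled points are well above background and open points are not, and the horizontal lines give the lowest level well above background on each array (-5.70 for control, -5.10 for BP10, -5.08 for BP40). Cdh1 and Epcam lie below these lines on every array, and the other 11 probes lie above them with the 3 points of a probe close together.

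Snai1 and Snai2 are close relatives that repress epithelial genes. The level of Snai1 was 3.91 in the control, 4.20 in BP10 and 3.96 in BP40. The log2 ratio against control was 0.29 in BP10 and 0.05 in BP40. Counted from a ratio of 0, Snai1 was thus a little higher in BP10, by more than 1 and less than 2 SD of the scanner error. In BP40 it was at the control level. Counted from the median of probes of like brightness, its ratio in BP10 was 0.42, just above 2 SD. The level of Snai2 was 3.63 in the control, 3.70 in BP10 and 3.96 in BP40, with log2 ratios of 0.07 and 0.33 against control. For Snai2 the higher value was at the higher concentration, again within 2 SD of the scanner error. The Snai1 probe (A_51_P165087) lies at chr2:167368073-167368132 and the Snai2 probe (A_51_P305547) at chr16:14709361-14709420, in the mm9 build that the scanner files use, which differs from the build of the promoter windows above.

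Zeb1 and Zeb2 are large zinc finger and homeobox proteins with repressor function on the same kind of promoter. The Zeb1 level was 3.01 in the control, 2.73 in BP10 and 2.74 in BP40. Both BP arrays were below the control by nearly the same amount (log2 ratios -0.28 and -0.27) and differed from each other by 0.01. The probes well above background on all 3 arrays had median ratios of -0.16 in BP10 and -0.07 in BP40. Of these probes, 40.6% had a ratio at or below that of Zeb1 in BP10 and 35.5% in BP40. The Zeb1 ratio in BP10 was thus not far from that of an average probe. Zeb2 had 2 probes on chromosome 2, both for the same transcript model. The probe at chr2:44842774-44842833 (A_52_P596008) gave levels of 1.93, 1.94 and 1.83 in control, BP10 and BP40. The probe at chr2:44840038-44840097 (A_52_P526372) gave -2.06, -1.97 and -2.30. The log2 ratio against control was 0.01 and 0.09 in BP10 and -0.11 and -0.24 in BP40, all within 2 SD of the scanner error. Under quantile normalization the ratio of A_52_P526372 in BP40 was 0.01, so no direction can be given for Zeb2.

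Twist1 drives mesoderm development and mesenchymal traits as a dimer with an E protein. Its level was 1.47 in the control, 1.36 in BP10 and 1.47 in BP40 (probe A_52_P20906, chr12:34644411-34644470). The log2 ratio was -0.11 in BP10 and 0.00 in BP40, which is within 1 SD of the scanner error for both. No difference of Twist1 was detectable between the 3 arrays.

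Prrx1 is a homeobox factor of limb and craniofacial mesenchyme, and its 2 probes were designed on different transcript variants. For variant 2 (A_55_P2131920, chr1:165175375-165175434) the level was 4.13 in the control, 3.64 in BP10 and 3.95 in BP40. For variant 3 (A_55_P2131915, chr1:165185408-165185467) it was 2.19 in the control, 1.93 in BP10 and 1.73 in BP40. All 4 log2 ratios against control were below 0, with -0.49 and -0.26 in BP10 and -0.18 and -0.46 in BP40 for variants 2 and 3. Of the probes well above background on all 3 arrays, 28% and 42% in BP10 had a ratio at or below these. In BP40 it was 42% and 26%. The 2 Prrx1 probes did not rank the BP arrays alike: variant 2 was lower in BP10 and variant 3 was lower in BP40. Their log2 ratios of BP40 against BP10 were 0.31 and -0.20. Counted from a ratio of 0, the Prrx1 probes were the only ones besides Thy1 to pass 2 SD of the scanner error against the control. Variant 2 did so in BP10 and variant 3 in BP40.

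Cdh2, the mesenchymal cadherin, was well above background with both of its probes. The probe A_55_P2000133 gave levels of 3.62, 3.49 and 3.52 in control, BP10 and BP40, and the probe A_55_P2029711 gave 4.05, 4.37 and 4.14. The log2 ratios against control were -0.13 and 0.32 in BP10 and -0.09 and 0.09 in BP40. The 2 probes disagreed in sign at both concentrations, so no direction can be given for Cdh2.

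Thy1, the fibroblast surface marker, showed the largest ratio against the control among the 11 probes above background. Its processed signal (A_55_P2072035, chr9:43856591-43856650) was 368030 in the control, 197470 in BP10 and 161860 in BP40, at levels of 7.70, 7.11 and 7.03. Both BP arrays were below the control and, with the main scaling, close to each other. The log2 ratio was -0.60 in BP10 (1.51-fold lower) and -0.67 in BP40 (1.59-fold lower), and -0.08 for BP40 against BP10. In BP40, Thy1 was the only one of the 11 probes outside the central 90% of probes of like brightness, which had a median of 0.07 and a 5th percentile of -0.43. In BP10 it was within that range, because bright probes as a class were low on the BP10 array, with a median of -0.24 and a 5th percentile of -0.74. Under quantile normalization or after centering on probes of like brightness, the ratio of Thy1 in BP10 shrank to between -0.36 and -0.33. In BP40 it stayed between -0.74 and -0.65 over all alternatives. For BP40 against BP10 it moved to -0.40 under both quantile normalization and centering, so the likeness of the BP arrays depends on the scaling. Since RNA came from whole cultures, fewer cells of a type and less RNA per cell cannot be told apart for Thy1 or any other gene.

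**Figure D2:**
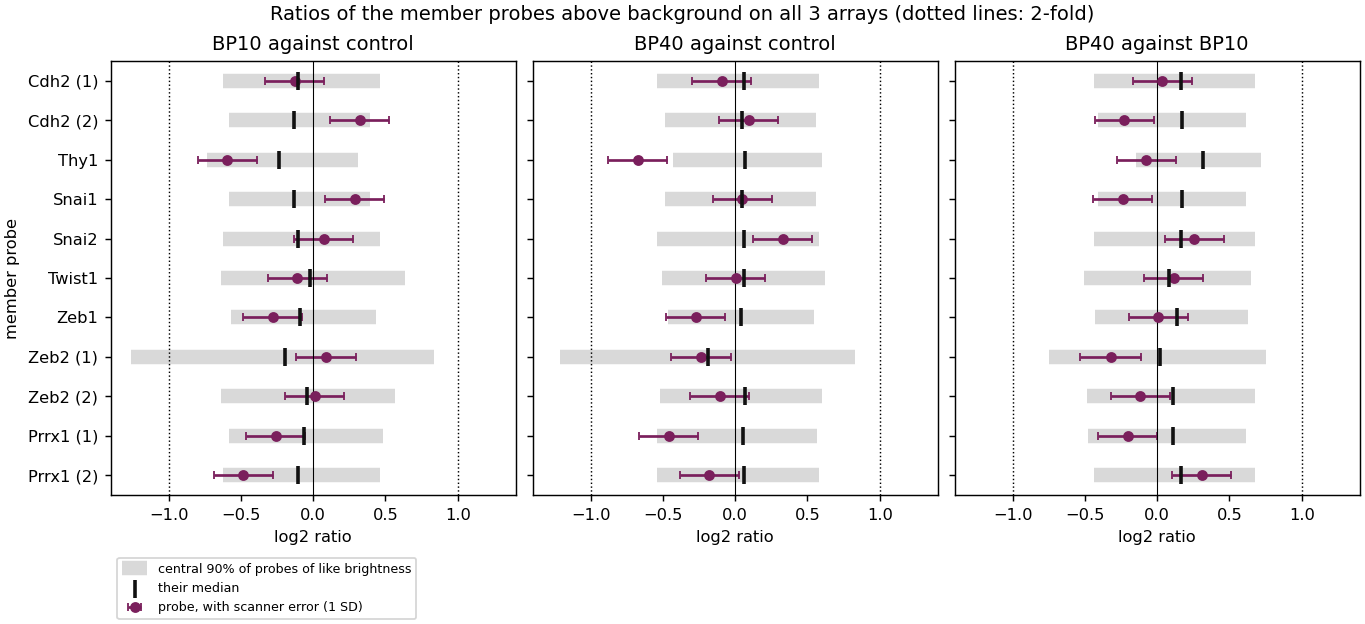
Log2 ratio of the 11 member probes above background on all 3 arrays, in a panel for each of the 3 comparisons. Points carry 1 SD of the scanner error, gray bars span the 5th to the 95th percentile of about 1102 probes of like brightness with their median as a tick, and dotted lines mark 2-fold. No point reaches a dotted line, and the Thy1 point in BP40 is the only one outside its gray bar.

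Cdh1 was printed 10 times on the array, which makes it the best sampled of the members. None of the 10 spots on the control and BP10 arrays, and none of the 9 spots kept on the BP40 array, was well above background. The processed signals of the 10 spots ran from 7.54 to 20.4 in the control (median 8.07) and from 8.29 to 29.0 in BP10 (median 8.79). In BP40 they ran from 7.36 to 21.1 (median 7.48) for the 9 spots kept, after 1 spot with a signal of 73.7, above background by the software's flag but also flagged by it as an outlier among the copies, had been left out. Of the kept Cdh1 values, 4 in the control, 8 in BP10 and 7 in BP40 were set by the software in place of measured ones. The medians of the 308 negative control spots were 7.54, 8.99 and 7.76 on the same arrays, with 95th percentiles of 9.18, 19.2 and 9.40. At or below that 95th percentile were 7 of 10 Cdh1 spots in the control, 9 of 10 in BP10 and 7 of 9 in BP40. Most Cdh1 spots thus gave a signal of the size given by probes without a target. The brightest kept spots, with 20.4 in the control, 29.0 in BP10 and 21.1 in BP40, lay above that 95th percentile but were not well above background. No fold change is given for Cdh1. The probe (A_51_P137336) lies at chr8:109193812-109193871.

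Epcam, read by 1 spot (A_52_P447944, chr17:88048972-88049800, a stretch longer than the probe itself), was not well above background either on the 3 arrays. Its signal was 24.1 in the control, 10.0 in BP10 and 31.0 in BP40, where the lowest signals well above background correspond to levels of -5.70, -5.10 and -5.08 and the Epcam levels were -6.19, -7.16 and -5.32. The BP10 value was set by the software in place of a measured one. The 95th percentiles of the negative control spots were 9.18, 19.2 and 9.40 on the same arrays. Unlike most Cdh1 spots, the Epcam spot was above that level in the control and BP40, and below it in BP10. No order of the 3 conditions can be read from these values, and an Epcam or Cdh1 transcript below this limit was not detectable.

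**Figure D3:**
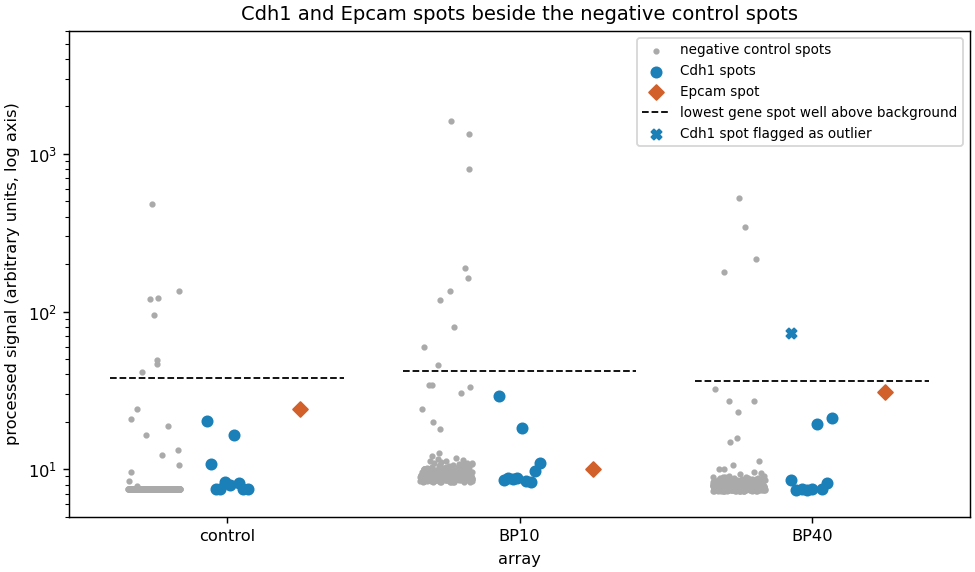
Processed signal (arbitrary units, log axis) of the Cdh1 spots, the Epcam spot and the 308 negative control spots on each array, with the dashed line at the lowest gene spot well above background. All Cdh1 and Epcam spots lie under the dashed line, apart from 1 Cdh1 spot in BP40 that was flagged as an outlier (cross), and most Cdh1 spots lie within the cloud of negative controls.

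Genes that work with the members were followed in fixed lists, with 1 probe per gene. Over all 35451 genes, 13.2% were called in BP10 and 11.7% in BP40 against control, and 3.65% for BP40 against BP10, with median log2 ratios of -0.24, -0.12 and 0.07. Both comparisons with the control share the same control array. Of 16 corepressors and partners of the SNAIL and ZEB factors, all were well above background on the 3 arrays and none was called in any comparison on its chosen probe, with medians of -0.12 in BP10 and 0.08 in BP40. The second probe of the corepressor Rcor1 had a log2 ratio of 1.02 in BP10, and without the detrending 1 gene of the list was called lower in BP10. The brightest of them were the histone deacetylase Hdac1, with levels of 5.56, 5.32 and 5.63 in control, BP10 and BP40, and the C-terminal binding protein Ctbp1, with levels of 5.52, 5.17 and 5.49. The log2 ratios were -0.24 and 0.07 for Hdac1 and -0.35 and -0.03 for Ctbp1, but the other 2 probes of Hdac1 had 0.48 and 0.30 in BP10, of the opposite sign.

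Among 27 other transcription factors of the transition and of mesenchyme, 25 were above background on all arrays. In BP10, 2 were called higher and 2 lower, and in BP40, 3 higher and 2 lower, with list medians of -0.17 and -0.12. The genes called higher were those of the Id family, whose proteins lack a DNA binding domain and capture the E proteins that Twist1 and other helix-loop-helix factors need as partners. Id1 had levels of 2.52, 3.84 and 4.13 in control, BP10 and BP40, with log2 ratios of 1.32 and 1.61. Id3 had levels of 3.71, 4.96 and 4.94, with ratios of 1.26 and 1.23. Id2 had levels of 1.94, 2.67 and 3.06, with ratios of 0.74 in BP10, under the threshold, and 1.12 in BP40. All 3 Id genes were higher than the control on both BP arrays, and they kept their sign and their call under each of 5 other ways of scaling or background correction.

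Twist2, the close relative of Twist1, had log2 ratios of -0.16 and -0.26, and Prrx2, the relative of Prrx1, had 0.82 and 0.87, under the threshold at both concentrations. Snai3 was well above background on the control array only, so that its difference is a bound: it was lower by at least 1.52 on the log2 scale in BP10 and at least 1.5 in BP40, and with the normexp background correction it was called at neither concentration, nor in BP10 after centering on probes of like brightness (-0.98). The other 2 calls, named after their values were seen, were the homeobox genes Meox2 and Msx1. Meox2 was lower in BP10 (log2 ratio -1.12, against -0.73 in BP40). Msx1 was lower in BP40 (-1.16, against -0.83 in BP10), but was not called with normexp (-0.97). The second probe of Runx2 had -1.13 in BP10 and -1.07 in BP40, against 0.26 and -0.43 on its chosen probe.

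**Figure D4:**
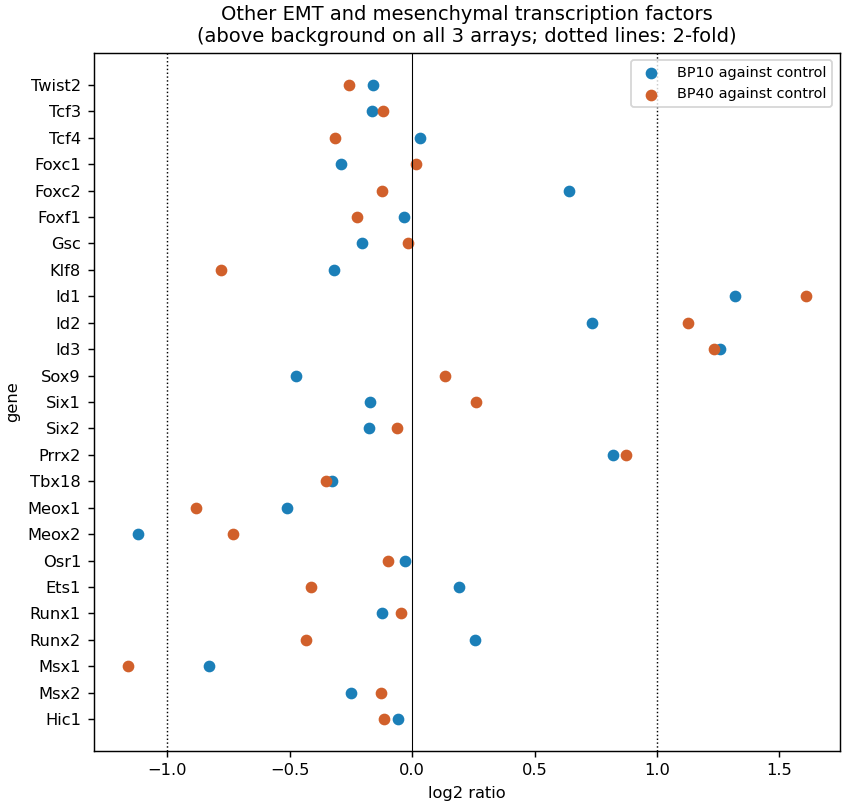
Log2 ratio of the 25 other transcription factors above background on all 3 arrays, for BP10 and BP40 against the control, 1 point per comparison, with dotted lines at 2-fold. Id1 and Id3 lie beyond 2-fold on the higher side in both comparisons and Id2 in BP40, whereas most other points lie between -0.5 and 0.5.

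The 30 mesenchymal and fibroblast genes that mark the labeled cell type were all well above background on all 3 arrays. They held 2 genes called lower in BP10 and 4 in BP40 and none called higher, with medians of -0.28 and -0.42, and 23 and 21 of the 30 had a ratio below 0. Calls over all genes were mostly lower too, with 933 higher and 3743 lower in BP10 and 904 higher and 3257 lower in BP40, and of the 25031 genes above background on all 3 arrays 65.4% and 55.5% had a ratio below 0. Lum, a small proteoglycan that orders collagen fibrils, had levels of 0.53 in the control, -2.68 in BP10 and -1.69 in BP40, and log2 ratios of -3.21 and -2.22. On the chosen probes, Lum was the only one called lower at both concentrations. Because the calls were few, the others are named here although they were seen first: the proteoglycan Dcn in BP10 (-1.06, against -0.50 in BP40), and in BP40 the fibrillar collagen Col3a1 (-1.23, against -0.76 in BP10), the matricellular protein Postn (-1.04, against -0.72) and the ectonucleotidase Nt5e (-1.03, against -0.46). Nt5e kept its call under 1 of 5 alternatives, with a ratio of -0.51 when centered on brightness, and Dcn lost its call with that centering (-0.96). The second probe of Sparc had -2.10 in BP10 and -0.04 in BP40, against -0.37 and 0.06 on its chosen probe. Vim, the intermediate filament of mesenchymal cells, had ratios of -0.60 and -0.36, and Col1a1 had -0.74 and -0.85, both under the threshold. With probes of like brightness as the reference, the list median was -0.10 in BP10 and -0.47 in BP40.

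In the epithelial programme, 34 of 35 listed genes were matched by name, 23 were above background in every condition and 4 in none. In BP10, 0 were called higher and 4 lower, and in BP40, 0 higher and 5 lower, with medians of -0.27 and -0.58. The called shares, 11.8% and 14.7%, were near the 13.2% and 11.7% of all genes. With probes of like brightness as the reference, the medians were 0.03 and -0.22. The calls were then 2 higher and 5 lower in BP10, and 2 higher and 2 lower in BP40. The tight junction protein Cldn6 was well above background on the control array only, and was lower by at least 1.93 in BP10 and at least 1.91 in BP40 on the log2 scale. Marveld3, another tight junction protein, had log2 ratios of -1.32 and -1.06, and its second probe had -1.74 and -1.75. The first probe of Marveld3 lost its call in BP40 under 4 of 5 alternatives, with ratios shrinking to as little as -0.53. Ehf, an epithelial ETS factor, had -1.24 and -1.12, but its second probe had 0.68 and 0.73, so its direction is not settled. The remaining calls, named after the fact, were Cldn4 in BP10 (-1.46), and the keratin Krt5 (-1.05) and the splicing factor Esrp1 (-1.02) in BP40. The second probe of Cldn4 had the opposite sign at both concentrations, with 0.76 in BP10 and 3.47 in BP40, against -0.76 in BP40 on its chosen probe. That of Esrp1 had -1.03 in BP10 and, with the opposite sign, 0.95 in BP40. Ratios of second probes are given whether or not they passed the background flag. Krt5 kept its call under 2 and Esrp1 under 1 of 5 alternatives. The second probe of Krt5 had -1.04 in BP10 and -1.81 in BP40. With the normexp background correction 0 of the 34 were called at either concentration, while after quantile normalization 0 were called higher and 3 lower in BP10 and 2 higher and 1 lower in BP40.

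Of 15 other cadherins and catenins, 12 were above background on all arrays. The brightest were the catenins that link cadherins to actin: Ctnna1 had log2 ratios of 0.12 and 0.16 against control, which turned to -0.29 and -0.07 with normexp and to -0.27 and -0.04 without the detrending, and Ctnnb1 had -0.36 and -0.24. In BP10 only Jup, a catenin of desmosomes, was called (1.63, against 0.91 in BP40). In BP40, Cdh13 was called higher (1.31), although its second probe had 0.09, and Cdh10 (-1.02) and Ctnna2 (-1.27) were called lower. On the chosen probes none of these genes was called at both concentrations, but the second probe of Ctnna2 had -1.21 in BP10 and -1.75 in BP40, and the other 2 probes of Cdh4 had -1.15 and -1.24 in BP10 and -1.23 and -1.18 in BP40. Cdh10 kept its call under 2 of 5 alternatives, and under quantile normalization and centering on brightness Jup passed 2-fold in BP40 as well.

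**Figure D5:**
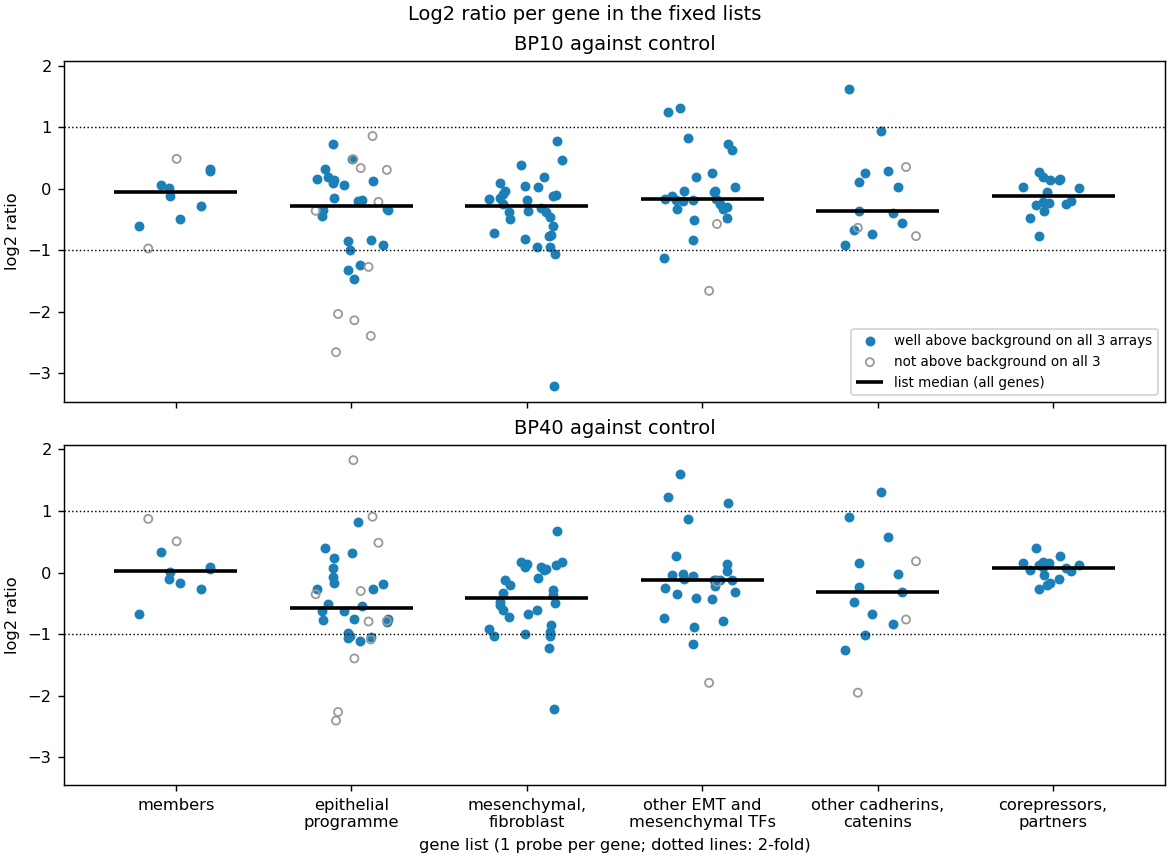
Log2 ratio of each gene in the member set and in 5 gene lists, for BP10 (upper panel) and BP40 (lower panel) against the control, with 1 probe per gene and thick lines at the list median. Filled points are well above background on all 3 arrays, open points are not, and dotted lines mark 2-fold. The members above background and the corepressors all lie inside the dotted lines, the lowest filled point of each panel is Lum, and the open points of the epithelial list scatter most.

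Markers of other cell types that a culture from minced embryos could hold were measured beside these values. Above background on all 3 arrays were 8 of 8 macrophage, 6 of 8 endothelial and 6 of 8 skeletal muscle markers. The same held for 7 of 8 neural and neural crest and 6 of 8 keratinocyte markers, and for 25031 of all 35451 genes. These counts alone thus do not show that a cell type was present. Cdh5, Tie1, Myf5 and Sox2 were above background on none of the arrays. The summed level of the macrophage list on a linear scale (75th percentile of the array set to 1) was 36.4 in the control, 29.9 in BP10 and 33.8 in BP40. The sums in the same order were 11.9, 9.45 and 12.6 for endothelial, 1.31, 1.5 and 1.02 for muscle, 17.7, 16.8 and 18.2 for neural, and 4.97, 5.55 and 4.49 for keratinocyte markers. A sum follows its brightest probes: the median log2 ratio of the keratinocyte list was -0.45 in BP10, with 4 of the 6 markers above background lower. The summed level of the mesenchymal list was 2659, 2177 and 2366. Lyz2 (log2 ratios 1.09 and 1.25) was called higher at both concentrations, and Cldn5 (-1.30 and -1.07), Pax7 (-1.35 and -1.02) and Krt15 (-1.27 and -1.44) were called lower at both. Under 5 alternatives the call of Cldn5 held in 2 for BP10 and 1 for BP40, that of Krt15 in 2 and 3, and that of Pax7 in 5 and 2. A single marker need not stand for its list. The list medians in BP10 and BP40 were -0.30 and 0.14 for macrophage and 0.01 and 0.01 for endothelial markers. For muscle they were -0.08 and -0.44, and for keratinocyte markers -0.45 and -0.69. The part of other cell types in the values of Thy1, the Id genes or the matrix genes was not tested.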

How the data were processed

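Gene expression was measured on 3 Agilent 1-color arrays, 1 each for control, BP10 and BP40. The authors deposited the scanner output of Feature Extraction 10.5.1.1, with an intensity per spot that was background-corrected and left without scaling between arrays. On the BP arrays the software had also divided it by a multiplicative detrending surface, which held for 100% of the spots well above background. The intensity values of the deposited series table equaled those of the scanner for 100% of the spots (relative tolerance 0.0001), and 0 columns were left unmapped. GeneSpring GX was named in the paper's methods, with no normalization, filter or fold.

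Here, each processed intensity was put on a log2 scale relative to the 75th percentile of the non-control spots of its array. Spots of one probe were averaged without those flagged as outliers, which left 55126 probes with a value on all 3 arrays. Of these, 26200 (47.5%) were named by the RefSeq symbol of their accession and the others by the name in the BP40 file. For gene lists, the probe above background on most arrays, then the brightest, was used. Where only 1 of 2 arrays was above background, the dim side was raised to the lowest level well above background before a call at 2-fold. Probes of like brightness are 50 classes of equal size by mean level.

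The members, the gene lists and the alternatives were chosen with earlier results of these data known, from general knowledge. Named from a list were up to 4 genes called the same way at both concentrations, those with the largest mean ratio first, or the 2 brightest where there were none. Other names are marked in the text or stand beside a member as its relative. One marker gene that this rule names is not reported here. As alternatives, dim probes were kept or had to pass on both arrays, the threshold was 1.5-fold or 3-fold, arrays were quantile normalized, scaled on the probes well above background everywhere, corrected by normexp with an offset of 50 or centered on brightness, a gene took the median of its probes, and the series table was used. Leaving out the detrending was added after seeing the data. Python 3.11.15, numpy 2.4.6, pandas 2.3.3, and R 4.3.3 with limma 3.58.1 were used. The precision is limited by the number of arrays.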

Additional observations from a re-analysis of the deposited data

How the results depend on the processing

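The counts of called member probes and the median log2 ratio of the member genes (-0.05 in BP10 and 0.03 in BP40 against control, 0.01 for BP40 against BP10) were recomputed under each alternative, and 51 of 54 values remained within the tolerance set for them. The exceptions were counts. At 1.5-fold in place of 2-fold, 1 member probe was called in BP10 and 1 in BP40 against control, Thy1 both times. With no filter on dim probes, 1 was called for BP40 against BP10, Epcam, which was below background on both arrays. Part of this agreement was fixed in advance. As no member probe was called at 2-fold, the 3-fold threshold and the pass on both arrays could not change the counts. The series table holds the same intensities and could change no value. Of 198 recomputed ratios of single probes above background, again with those from the series table, 195 moved by less than the median SD between 2 probes of a gene. The medians of the members are close to 0, and their sign changed with the scaling.

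Scaling matters more for the array as a whole. Quantile normalization moved the median log2 ratio of all probes from -0.24 to -0.03 in BP10 and from -0.15 to 0.00 in BP40, and the share of calls that were higher from 21.6% to 56.4% in BP10 and from 22.3% to 58.8% in BP40. Normexp reduced the called probes from 6986 to 1996 in BP10, from 6166 to 1425 in BP40 and from 2055 to 754 for BP40 against BP10. Leaving out the detrending, chosen after seeing the data, gave 6647, 5905 and 1925. The cause was not tested. No paired analysis was possible because there was a single array for every condition, and no replicate could be left out. Differences of Cdh1 and Epcam are limited by background, and those under 2-fold by the single array per condition.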
